A study of Mus musculus with 6 samples.

Results

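The genes described here are 9 factors of the anterior primitive streak, the organizer and the definitive endoderm: *Gsc*, *Foxa2*, *Lhx1*, *Otx2*, *Sox17*, *Hhex*, *Cer1*, *Chrd* and *Cxcr4*. They were picked by gene symbol from a table of 15266 genes, and all 9 were present and passed the filter on low counts. mRNA-seq was performed on day 4 (D4) embryoid bodies (EBs), which are aggregates of differentiating mouse embryonic stem cells (mESCs), with 3 replicates of each of 2 edited lines derived from W9.5 mESCs. The EVX1-Δfs line (Clone 14) carries small frameshift deletions on both alleles in the homeodomain-encoding part of *Evx1*, with the rest of the locus left in place. The Del#3 line carries a 2.6 kb deletion that takes away the shared promoter of *Evx1* and its antisense lncRNA *Evx1as* together with exons of both. Neither line should therefore make functional EVX1, and Del#3 additionally lacks most of *Evx1as*. The labels name no clone for Del#3. Both lines were kept in LIF and then differentiated for 4 days in serum medium without it. The comparison asks whether genes of the anterior fate differ once *Evx1as* is removed in addition to EVX1. Unedited W9.5 EBs were not analysed here, so the effect of losing EVX1 itself cannot be read from these values.

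During gastrulation, epiblast cells that pass through the anterior end of the primitive streak receive high Nodal signalling and become definitive endoderm, prechordal mesoderm and the node. The transcription factors GSC, FOXA2, LHX1 and OTX2 mark and direct these anterior cells, SOX17 and HHEX act in the endoderm that they form, and the secreted proteins Cerberus-like 1 and Chordin hold back Nodal, WNT and BMP signals around them. Several of the same genes are also used by the visceral endoderm, an extraembryonic tissue that covers the epiblast, and *Otx2* is used by the epiblast and the neurectoderm as well.

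The edits that define the lines were made with Cas9 and the guides below, which are shown because they are the only designed difference between the groups. Each was found on chromosome 6 of NCBIM37 (mm9) on the plus strand, 5′ to 3′, with the genomic PAM in capitals.
EVX1-Δfs guide at chr6:52265847-52265866: ccagatgcgccgataccgcaCGG
Del#3 guide 1 at chr6:52265302-52265321: cacacctggtactggcatacTGG
Del#3 guide 2 at chr6:52262639-52262658: tcattagaacacgccgtttgTGG
None of the 9 genes lies on chromosome 6. As a check of the labels, *Evx1* showed normalized counts of 2655, 3671 and 3051 for replicates 1 to 3 of EVX1-Δfs, against 38.3, 32.5 and 33.1 for those of Del#3. *Evx1as*, listed as 5730457N03Rik, had 580.1, 689.1 and 674.6 normalized counts in EVX1-Δfs and 16.7, 25.6 and 32.0 in Del#3. Both transcripts were thus nearly absent from all Del#3 libraries and present in all EVX1-Δfs libraries. The frameshift of EVX1-Δfs leaves the transcript in place and cannot be checked by its level.

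The promoters of the genes were searched for short letters bound by homeodomain, forkhead and signalling factors, because the lines compared both lack a homeodomain protein. RefSeq promoter windows (build GRCm38.p6, from 250 bases before to 50 bases after a start) were matched for 8 of the 9 genes, with 13 windows in all, since some genes have several starts whose windows can overlap. Both strands were searched. The EVX-type homeodomain core TAATTA was in windows of *Cer1* and *Otx2*, in 3 of the 13 windows, against 5.29% of all 32851 windows. The bicoid-type site TAATCC, the kind that GSC and OTX2 bind, was in 1 window, of *Otx2*, against 7.06% of all. The TCF/LEF site CTTTGAT was in 1 window, of *Foxa2*, against 3.73% of all. The forkhead core TGTTTAC and the FOXH1 site TGTGNATT were in none, against 3.65% and 3.60% of all. TAATTA and TAATCC share the letters TAAT but cannot both be read from the same strand at the same place. A match in letters is not evidence of binding. The windows with TAATTA are shown for *Cer1* and for the *Otx2* start with the most matches, with TAATTA, and in *Otx2* also TAATCC on the strand opposite to the printed one (printed as GGATTA), in capitals.
Cer1 promoter, GRCm38.p6 chr4:82885102-82885401, minus strand: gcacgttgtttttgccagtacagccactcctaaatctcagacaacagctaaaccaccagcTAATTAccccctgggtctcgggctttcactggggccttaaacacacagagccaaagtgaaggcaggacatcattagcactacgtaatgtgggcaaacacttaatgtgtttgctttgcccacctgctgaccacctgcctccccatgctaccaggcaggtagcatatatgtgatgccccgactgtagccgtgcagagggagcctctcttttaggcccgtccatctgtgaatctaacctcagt
Otx2 promoter, GRCm38.p6 chr14:48665060-48665359, minus strand: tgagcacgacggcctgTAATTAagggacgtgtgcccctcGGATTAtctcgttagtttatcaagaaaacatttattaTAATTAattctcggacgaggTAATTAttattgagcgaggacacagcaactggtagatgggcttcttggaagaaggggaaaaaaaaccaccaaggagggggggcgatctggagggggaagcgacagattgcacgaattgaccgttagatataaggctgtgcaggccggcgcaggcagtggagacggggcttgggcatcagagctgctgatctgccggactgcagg
The *Cer1* window holds TAATTA once, and the *Otx2* window holds it at 3 places that do not overlap.

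All 9 genes were expressed in every library of both lines. The authors deposited counts per gene divided by a size factor per library, called normalized counts here, and whole reads could be recovered from them. The lowest depth on any of the genes was 29 reads, for *Chrd* in EVX1-Δfs replicate 3, and the highest was 2751 reads, for *Cer1* in EVX1-Δfs replicate 1. Total recovered reads per library ranged from 9024579 to 15699124. The tissue label was checked against markers of the cell types that D4 EBs may hold. Pluripotent epiblast genes were abundant, with *Pou5f1* at 4444 to 7890 normalized counts, and so were the streak genes *T* (881.1 to 1346) and *Eomes* (2072 to 4027). Among 12 listed visceral endoderm markers, *Dab2* was the most abundant, at 39.5 to 251.0 normalized counts, and *Hnf4a* had 52.8 to 124.3. *Afp* had at most 4.27 normalized counts in any library. The sum over the markers was 294.2 to 366.3 in EVX1-Δfs and 324.0 to 739.6 in Del#3. Del#3 replicate 1, at 739.6, stood above the other libraries in this sum. There *Dab2* was at 251.0, *Apoa1* at 106.0 and *Apob* at 52.6, against at most 182.8, 51.1 and 3.48 elsewhere. *Afp*, *Rbp4* and *Trf* were highest in other libraries. *Cubn* was at 0 in Del#3 replicate 2.

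Scaled to exon length, so that genes can be compared with each other, *Cer1* was the most abundant of the 9, with 1166 ± 223 normalized counts per kb (SD, n = 6 libraries of both lines). *Foxa2* followed at 271 ± 80.3, *Gsc* at 219 ± 47.7, *Sox17* at 216 ± 32.7, *Lhx1* at 203 ± 21.7 and *Cxcr4* at 188 ± 25.4 normalized counts per kb (SD, n = 6 for each). *Otx2* had 114 ± 26.8, *Hhex* 28.5 ± 12.6 and *Chrd* 12.6 ± 3.95 normalized counts per kb (SD, n = 6 for each). The level of *Cer1* was 4.30 times that of *Foxa2*, and *Cer1* was above *Foxa2* in 6 of 6 libraries. *Foxa2* was above *Gsc* in 6 of 6 libraries, by 0.28 ± 0.20 on the log2 scale (SD). The neighbours *Gsc* and *Sox17* did not differ beyond their spread, with *Gsc* higher in 3 of 6 libraries, and neither did *Sox17* and *Lhx1* (5 of 6) or *Lhx1* and *Cxcr4* (4 of 6). *Cxcr4* was above *Otx2*, *Otx2* above *Hhex*, and *Hhex* above *Chrd* in 6 of 6 libraries each. With the length of the longest transcript, *Cxcr4* was above *Otx2* in 4 of 6 libraries and *Hhex* above *Chrd* in 5 of 6. Lengths were those of the union of exons in the GENCODE annotation of NCBIM37, and the transcripts in use in these EBs are not known.

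**Figure D1:**
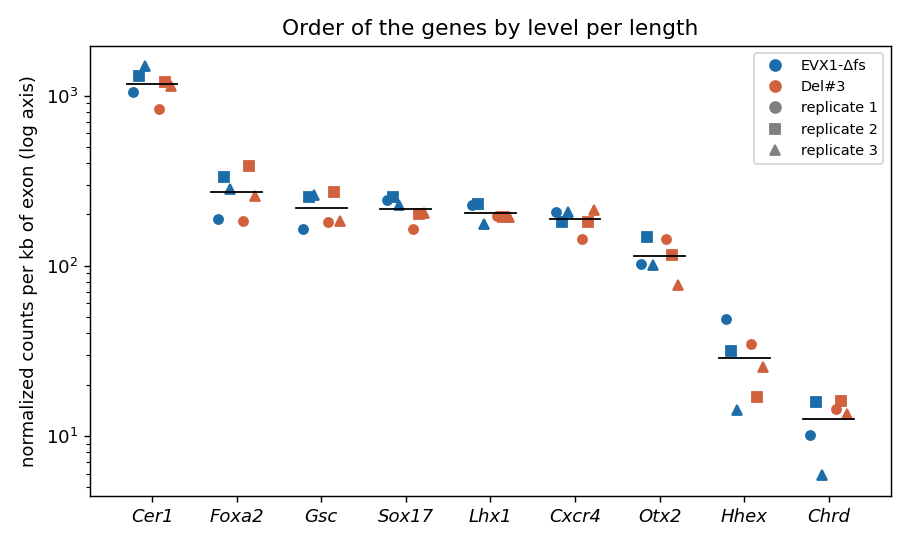
Normalized counts per kb of exon (log axis) of the 9 genes, ordered by their mean over the 6 libraries (black bar). Blue points are EVX1-Δfs and orange points Del#3 libraries, with a symbol for each replicate. *Cer1* lies above all other genes, from 833 to 1484, and *Chrd* is lowest, from 5.87 to 16.1.

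Between the lines, none of the 9 genes passed the test for a change. By limma on log2(normalized count + 1), with Benjamini-Hochberg adjustment over 12891 genes, 0 of the 9 had an adjusted p-value under 0.05, against 2 genes or 0.0155% of all genes tested. Without adjustment, 0 of 9 were under 0.05 as well, against 1.03% of all genes tested. When replicates were blocked in limma, 0 of 9 were again called, against 0.0233% of all genes tested, and 0 of 9 were under 0.05 without adjustment, against 4.62%. edgeR's quasi-likelihood test and DESeq2's Wald test on the recovered reads also called 0 of 9, against 0.0155% and 0.0233% of all genes tested. With so few genes called, 0 of 9 is near the background and sets the 9 genes apart from no others. Fitted log2 fold changes, given as Del#3 against EVX1-Δfs, ranged from -0.35 for *Sox17* to 0.56 for *Chrd*, with a median of -0.12, against 0.0022 over all genes tested. The median size of the change regardless of sign was 0.161 for the 9 genes and 0.163 for all genes tested. Fitted values were below 0 for 7 of the 9 genes, against 49.6% of all. For 7 of the 9 genes the 95% confidence interval lay within a 2-fold change either way, against 61.1% of all genes tested, the exceptions being *Hhex* and *Chrd*. With the block it did so for 8 of 9, against 76.2% of all, with *Chrd* as the exception. In EBs, fewer cells of a type and less RNA per cell cannot be told apart. p-values measure the spread between 3 differentiations of each line. For EVX1-Δfs all are of the same clone, so spread between clones is not measured, and for Del#3 the clone is not named.

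**Figure D2:**
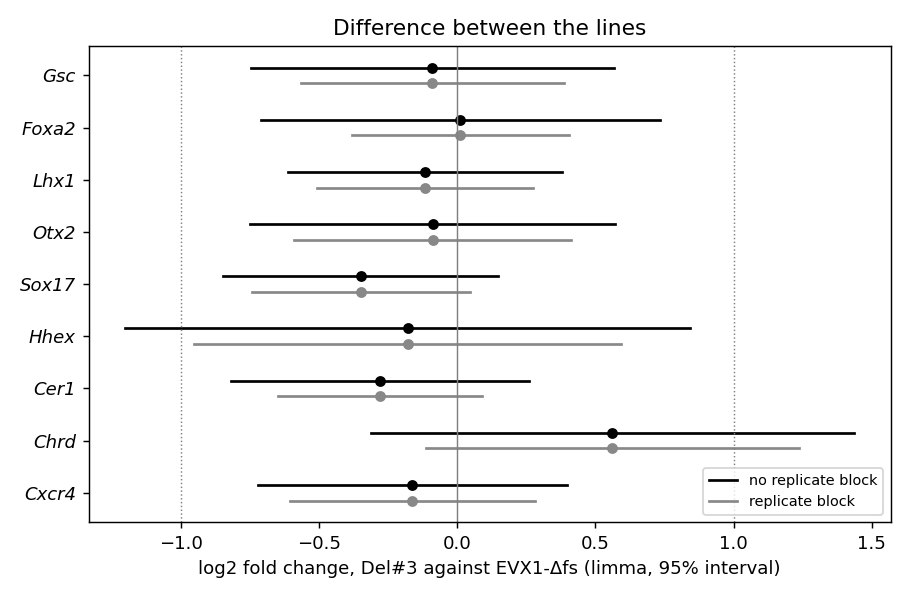
Log2 fold change of each gene in Del#3 against EVX1-Δfs (point) with its 95% interval by limma (line), without the replicate block in black and with it in grey; dotted lines mark a 2-fold change. Every interval includes 0, and the point farthest from 0 is that of *Chrd*, at 0.56.

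The transcription factors of the anterior streak overlapped between the lines, gene by gene. *Gsc*, a homeodomain repressor of the organizer (chromosome 12 of NCBIM37 from 105709419 to 105711537, minus strand), showed normalized counts of 207.9, 319.9 and 329.6 for replicates 1 to 3 of EVX1-Δfs and 228.7, 343.7 and 231.8 in Del#3. The lines overlapped, and the means were 286 ± 67.7 and 268 ± 65.5 (SD, n = 3 each). The log2 fold change of *Gsc* was -0.089 (standard error 0.30, limma adjusted p = 1.00), which is a fold of 0.940 with a 95% interval from 0.597 to 1.48. *Foxa2*, a forkhead pioneer factor needed for node and endoderm (chromosome 2 from 147868613 to 147872705, minus strand), had 447.5, 782.9 and 669.9 normalized counts in EVX1-Δfs and 432.0, 919.7 and 604.5 in Del#3. Replicate 1 was lowest and replicate 2 highest in each line, and the lines overlapped. The fitted fold of *Foxa2* was 1.01, with a 95% interval from 0.611 to 1.66.

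*Lhx1*, a LIM-homeodomain factor of the anterior mesendoderm (chromosome 11 from 84331479 to 84338923, minus strand), had 938.5, 951.6 and 726.6 normalized counts in EVX1-Δfs and 804.2, 793.1 and 798.9 in Del#3. It was the steadiest of the 9 genes, with a highest value 1.31 times the lowest over the 6 libraries, and the Del#3 values lay inside the range of EVX1-Δfs. Its fitted fold was 0.923, with a 95% interval from 0.655 to 1.30, and its log2 fold change of -0.12 was -0.058, -0.048 and -0.24 without EVX1-Δfs replicates 1, 2 and 3 in turn. *Otx2*, a homeodomain factor of anterior epiblast, visceral endoderm and later forebrain (chromosome 14 from 49277354 to 49287319, minus strand), had 349.8, 498.1 and 342.6 normalized counts in EVX1-Δfs and 485.4, 392.5 and 260.6 in Del#3. The lines overlapped, Del#3 being higher in replicate 1 and lower in replicates 2 and 3. Its fitted fold was 0.941, with a 95% interval from 0.595 to 1.49. The sign of the fitted change was not stable for *Gsc*, *Foxa2*, *Otx2* or the endoderm gene *Hhex*, and turned for each of them when some single libraries were left out.

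The endoderm factors differed in how closely their replicates lay. *Sox17*, an HMG-box factor required for definitive endoderm (chromosome 1 from 4481009 to 4486494, minus strand), had 772.2, 800.5 and 714.8 normalized counts in EVX1-Δfs and 518.0, 637.5 and 647.2 in Del#3. It was the only one of the 9 genes whose lines did not overlap (exact permutation test, two-sided, p = 0.1, the smallest that 3 against 3 allow), against 3.51% of all genes tested in either direction, 1.80% with Del#3 lower and 1.71% with Del#3 higher. The means were 762 ± 43.6 and 601 ± 71.9 (SD, n = 3 each), so that Del#3 had 78.8% of the EVX1-Δfs level. Its log2 fold change was -0.35 (standard error 0.22), and it did not pass the test (limma, unadjusted p = 0.15, adjusted p = 1.00). The fold of 0.785 had a 95% interval from 0.557 to 1.11. Within replicates the log2 difference of *Sox17* was -0.57, -0.33 and -0.14, and it kept its sign when each library was left out, from -0.41 to -0.25. Of all genes tested, 7.02% had a lower fitted change.

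*Hhex*, a homeodomain repressor of anterior endoderm and its visceral counterpart (chromosome 19 from 37507377 to 37515218, plus strand), was the most variable of the 9 genes. It had 186.1, 120.7 and 54.4 normalized counts in EVX1-Δfs and 133.1, 65.0 and 97.2 in Del#3. Replicate 1 was highest in both lines, and the lines overlapped. The log2 difference within replicates was -0.48, -0.88 and 0.83, so its direction was not shared. The log2 fold change of *Hhex* was -0.18 with the largest standard error of the 9, 0.46, and the fold of 0.884 had a 95% interval from 0.435 to 1.79. The interval of *Hhex* thus reaches past a 2-fold decrease. Of the 12 visceral endoderm markers, 4 (*Ttr*, *Apob*, *Cubn* and *Dab2*) were likewise highest in replicate 1 of both lines and the others were not. Their sum was 366.3, 364.5 and 294.2 normalized counts in EVX1-Δfs and 739.6, 324.0 and 331.1 in Del#3, and its part in the values of *Hhex* was not tested.

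Both genes for secreted antagonists were measured at very different depth. *Cer1*, which encodes an inhibitor of Nodal, WNT and BMP ligands (chromosome 4 from 82527655 to 82531052, minus strand), had 1816, 2270 and 2580 normalized counts in EVX1-Δfs and 1448, 2083 and 1972 in Del#3. The lines overlapped, although Del#3 was lower within each replicate, by -0.33, -0.12 and -0.39 on the log2 scale. The means were 2222 ± 385 and 1834 ± 339 (SD, n = 3 each). The log2 fold change of *Cer1* was -0.28 (standard error 0.24), a fold of 0.824 with a 95% interval from 0.567 to 1.20 (limma, adjusted p = 1.00). *Cer1* and *Sox17* were the genes lower in Del#3 in 3 of 3 same-numbered pairs, 2 of the 9, against 11.0% of all genes tested. With Del#3 replicate 1 left out, the library with the highest visceral endoderm sum, the log2 fold change was -0.12 for *Cer1* and -0.25 for *Sox17*. Without EVX1-Δfs replicate 3 it was -0.16 for *Cer1*. The part of visceral endoderm in these values was not tested.

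*Chrd*, which encodes the BMP-binding protein Chordin of the organizer (chromosome 16 from 20733200 to 20742457, plus strand), had 59.4, 92.6 and 34.3 normalized counts in EVX1-Δfs and 84.5, 94.1 and 78.0 in Del#3. The lines overlapped, and the lowest value by far was that of EVX1-Δfs replicate 3, with 29 reads. The means were 62.1 ± 29.3 and 85.5 ± 8.09 (SD, n = 3 each). *Chrd* was the only one of the 9 that was higher in Del#3 in 3 of 3 pairs, by 0.50, 0.022 and 1.16 on the log2 scale, against 12.1% of all genes tested. Its log2 fold change was 0.56 (standard error 0.39, limma adjusted p = 1.00), and the fold of 1.48 had a 95% interval from 0.806 to 2.71. EVX1-Δfs replicate 3 carried much of this value: without it the log2 fold change was 0.20, and without EVX1-Δfs replicate 2 it was 0.90. In the latter setting *Chrd* was under 0.05 without adjustment (limma, unadjusted p = 0.0453, adjusted p = 1.00), against 0.877% of all genes tested, and it was the only one of the 9 to be so in any of the 16 alternatives. *Chrd* shares 154 exonic bases with *Thpo* on the opposite strand, a gene with a mean of 19.6 normalized counts, and the assignment of reads over that stretch was not checked.

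*Cxcr4*, the receptor for the chemokine CXCL12, which guides migrating mesendoderm (chromosome 1 from 130484776 to 130488870, minus strand), had 371.6, 328.2 and 373.4 normalized counts in EVX1-Δfs and 260.6, 326.3 and 382.3 in Del#3. The lines overlapped, and only Del#3 replicate 1 lay below the rest. The log2 fold change of *Cxcr4* was -0.16 (standard error 0.25), and the fold of 0.894 had a 95% interval from 0.607 to 1.32. Without Del#3 replicate 1 the log2 fold change of *Cxcr4* was -0.016, and without Del#3 replicate 3 it was -0.29. Its ligand gene *Cxcl12* had a mean of 237 ± 74.4 normalized counts in EVX1-Δfs and 233 ± 34.3 in Del#3 (SD, n = 3 each).

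**Figure D3:**
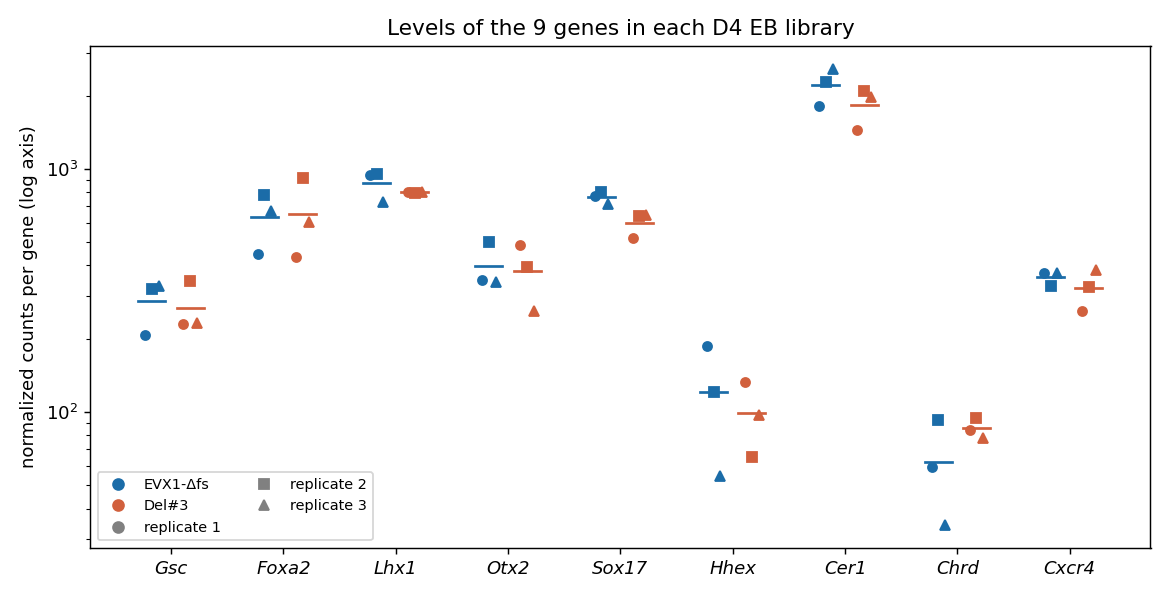
Normalized counts (log axis) of the 9 genes in each library, with EVX1-Δfs in blue, Del#3 in orange, a symbol for each replicate and a bar at the mean of the 3 replicates. The lines overlap for 8 genes, and the *Sox17* values of Del#3 (518.0 to 647.2) lie below those of EVX1-Δfs (714.8 to 800.5).

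Both lines were differentiated side by side on several days, and the genes were next compared among replicate numbers over both lines. Each number was taken as a day, which the sample names do not state. Deviations from the line mean correlated across genes at 0.74, 0.32 and -0.053 between the same-numbered libraries of replicates 1 to 3. In what follows, day therefore means replicate number. *Foxa2* had the largest share of its variation between days. It averaged 440, 851 and 637 normalized counts in replicates 1 to 3, which is a range of 0.95 on the log2 scale, and 95.8% of its sum of squares on that scale was between days. *Cer1* averaged 1632, 2177 and 2276 and *Gsc* 218, 332 and 281 normalized counts in the same order, with 66.7% and 71.9% of their sums of squares between days. *Hhex* ran differently, averaging 160, 92.9 and 75.8, and had the widest range of the 9, 1.10 on the log2 scale. *Sox17* was the opposite case, with 11.95% of its sum of squares between days and 70.0% between lines. The median share between days was 59.3% for the 9 genes and 64.4% for all genes tested, and the median range between days was 0.56 and 0.58 on the log2 scale.

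By limma's moderated F test for replicate number with the line in the model, 0 of the 9 genes had an adjusted p-value under 0.05, against 4.24% of all genes tested. *Foxa2* came nearest (adjusted p = 0.0739) and was the only one of the 9 genes under 0.05 without adjustment (limma F test), against 27.7% of all genes tested. The call of *Foxa2* turned on the method: on the recovered reads, the adjusted p was 0.0334 by the likelihood ratio test of DESeq2, which called 11.2% of all genes tested, and 0.0782 by the quasi-likelihood test of edgeR. It also turned on single libraries, with an adjusted p by limma of 0.0118, 0.0273 and 0.0165 without Del#3 replicate 3, EVX1-Δfs replicate 2 and EVX1-Δfs replicate 3, where 25.2%, 17.1% and 19% of all genes tested were called. Without Del#3 replicate 1 or EVX1-Δfs replicate 1, where both lines were low, it was 0.667 and 0.512, and 1.64% and 1.5% of all were called. *Hhex* passed once, without Del#3 replicate 3 (limma adjusted p = 0.00266), where 25.2% of all genes tested were called, and its adjusted p was 0.207 with all libraries. Replicate 2 was the highest day for 6 of the 9 genes, against 34.8% of all genes tested, and the lowest for 0, against 35.5%.

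**Figure D4:**
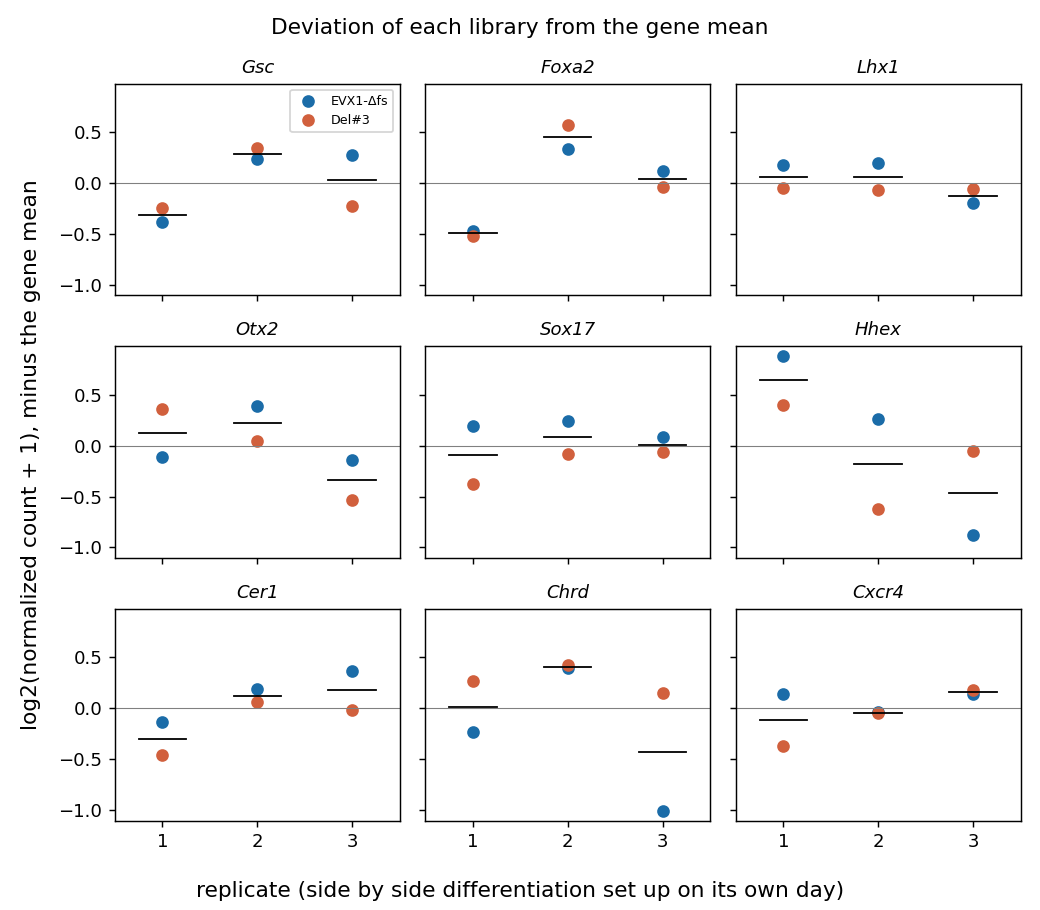
Each panel shows 1 gene, with log2(normalized count + 1) minus the mean of the gene over 6 libraries on the vertical axis and replicate on the horizontal axis, EVX1-Δfs in blue, Del#3 in orange and the day mean as a bar. *Foxa2* shows the closest pairing, low in replicate 1 and high in replicate 2 in both lines, whereas the *Sox17* points are parted by line.

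Likeness of patterns was measured as the root mean square difference of log2 profiles, each centred on its own mean, over the 6 libraries. Among the 9 genes, *Gsc* and *Foxa2* were each other's nearest, at 0.19, and so were *Sox17* and *Cxcr4*, at 0.16. Of all genes tested, 8.25% were nearer to *Gsc* than *Foxa2* was, and 1.07% were nearer to *Sox17* than *Cxcr4* was. *Hhex* was the farthest member from *Foxa2*, at 0.92. The nearest of all 12890 other genes tested was *Slc35f2* for *Gsc* (0.045), *Tbc1d20* for *Foxa2* (0.046), *Rhoa* for *Lhx1* (0.052) and *Slc17a9* for *Otx2* (0.083). It was *Phf5a* for *Sox17* (0.057), *Parvb* for *Hhex* (0.13), *Mdfic* for *Cer1* (0.027), *Cpeb1* for *Chrd* (0.092) and *Siah1a* for *Cxcr4* (0.053). With 6 libraries, such matches are found for any gene and are given as a description.

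The genes around the 9 factors in the same pathways are given as counts and medians. Since 0.0155% of all genes tested were called between the lines, a count of 0 is what a list of this size would give anyway, and nothing is read from it for any of the lists that follow. Of the Nodal pathway that induces anterior streak, 13 genes were tested, from the ligands *Nodal* and *Gdf3* over the co-receptors *Tdgf1* and *Cfc1* to the Smads and the antagonists *Lefty1* and *Lefty2*, and 0 rose or fell by limma at an adjusted p-value under 0.05. Their log2 fold changes ranged from -0.45 for *Lefty2* to 0.67 for the receptor *Acvr2a*, with a median of -0.0070. *Tdgf1* was the most abundant of them, with 5504 ± 980 normalized counts in EVX1-Δfs and 4221 ± 416 in Del#3 (SD, n = 3 each). *Acvr2a* had 102 ± 37.0 and 157 ± 23.6 (SD, n = 3 each), and its unadjusted p-value was under 0.05 only with the replicate block, as was that of the visceral endoderm marker *Ttr*, against 4.62% of all genes tested with that block. Of 9 other organizer and node genes tested, *Nodal* and *Lefty1* counted here too, 0 passed, with a median log2 fold change of -0.17 and a range from -0.54 for *Foxa1* to 0.12 for *Nog*. *Noto*, *Shh* and *Foxd4* were too low to be tested, with at most 15.2 normalized counts in any library.

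Of 13 other genes of the endoderm lineage, 0 passed, again against 0.0155% of all genes tested, with a median log2 fold change of -0.14 and a range from -0.54 for *Foxa1* to 0.66 for *Sfrp5*. The most abundant was *Trh*, with 15294 ± 5058 normalized counts in EVX1-Δfs and 11988 ± 4521 in Del#3 (SD, n = 3 each). Of 15 partners of the encoded proteins, among them BMP ligands bound by Chordin, the LHX1 cofactor gene *Ldb1* and the TLE co-repressors of GSC and HHEX, 0 passed, with a median of 0.12. Of these, *Tle4* had the lowest log2 fold change, -0.31, *Tll1*, for a protease that cleaves Chordin, the highest, 0.42, and *Ssbp3* the highest mean level, 2998 normalized counts. Among markers of other cell types, 0 of 7 visceral endoderm, 0 of 10 posterior streak and mesoderm and 0 of 8 epiblast and neurectoderm genes tested passed, with medians of 0.22, 0.027 and -0.024. The visceral endoderm genes ranged from -0.78 for *Cubn* to 0.72 for *Ttr*, the posterior genes from -0.27 for *Mesp1* to 0.48 for *Hand1*, and the epiblast genes from -0.25 for *Nanog* to 0.28 for *Utf1*. The most abundant epiblast gene was *Dnmt3b*, with 11932 ± 3015 normalized counts in EVX1-Δfs and 12023 ± 3204 in Del#3 (SD, n = 3 each). The summed level of the posterior genes was 7492 to 9821 normalized counts in EVX1-Δfs and 8263 to 12070 in Del#3, and that of the epiblast genes was 19030 to 28320 and 17650 to 29050, so both overlapped between the lines.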

How the data were processed

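mRNA-seq was done on 6 libraries with the Ion Proton. Per the study's methods, TopHat2 and TMAP were the aligners (build mm9), HTSeq the counter and DESeq2 the authors' tool for testing. Each deposited signal value is a gene's count over the size factor of its library, since 100% of the values came out as whole reads (tolerance 0.01), which were used where a test needs counts. Recovered reads assigned to the listed genes, which are not all reads sequenced, totalled 9024579 to 15699124 per library. Genes kept by filterByExpr of edgeR (version 4.0.16, minimum count 10) numbered 12891. Lines were compared on log2(normalized count + 1) in limma (version 3.58.1, R 4.3.3), its variance prior following mean level, with Benjamini-Hochberg adjustment and a threshold of 0.05. Days were compared by limma's F test with line as a covariate. Alternatives were pseudocounts of 0.1 and 5, TMM, other low-count filters, edgeR, DESeq2 (version 1.42.0), the replicate block, longest-transcript lengths and leaving out each library. The fits were tested on simulated data.

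Per the series' design text, both lines were differentiated in parallel on a separate day for every replicate. Replicate numbers were therefore taken to pair the libraries, although the sample names give numbers only. Deviations of same-numbered libraries from their line mean correlated across genes at 0.74, 0.32 and -0.053 in replicates 1 to 3. Del#3 replicate 2 correlated more with EVX1-Δfs replicate 3 (0.42), and Del#3 replicate 3 more with EVX1-Δfs replicate 2 (0.25).

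The members and lists were chosen with earlier results of these data known. Named were all 9 members and, of each list, genes past the threshold, the most abundant gene and the extremes of fold change; other genes named were chosen after their values were seen. *Pyy*, *Gdf1* and *Apoa2* were not analysed here, and *Ackr3* was read as *Cxcr7*.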

Additional observations from a re-analysis of the deposited data

How the results depend on the processing

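Between the lines, 0 of the 9 genes were called in all 16 alternatives. The number of all genes called was 2 or 3 in 15 of them and 9 with the replicate block in DESeq2, and the cause was not tested. The replicate block changed no call among the 9 genes, with adjusted p-values by limma from 0.992 to 0.999. Over all genes it raised the number with an unadjusted p-value under 0.05 from 133 to 596. *Sox17*, *Cer1*, *Lhx1*, *Chrd* and *Cxcr4* kept their sign in every alternative. With single libraries left out, the log2 fold change of *Gsc* ranged from -0.30 to 0.029, with 0.012, 0.0025, 0.0074 and 0.029 without Del#3 replicates 1 and 3 and EVX1-Δfs replicates 2 and 3. That of *Foxa2* ranged from -0.27 to 0.27, with -0.27 and -0.22 without Del#3 replicate 2 and EVX1-Δfs replicate 1. That of *Hhex* ranged from -0.66 to 0.22, with 0.087 and 0.22 without the same libraries. That of *Otx2* ranged from -0.29 to 0.16, with 0.16 and 0.086 without Del#3 replicate 3 and EVX1-Δfs replicate 2.

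Between days, 546 genes were called by limma, 347 with TMM factors, 1298 with DESeq2 and from 194 (without EVX1-Δfs replicate 1) to 3247 (without Del#3 replicate 3) with each library left out. Of the 9 genes, 0 were called by limma, 1 with DESeq2 and from 0 to 2 with each library left out. The cause was not tested. With lengths of the longest transcript, *Otx2* had 169.9 and *Chrd* 16.7 normalized counts per kb, and the order of the 9 means was the same. Total reads in place of size factors, a choice made after seeing the data, again left *Sox17* as the only one of the 9 without overlap between the lines, against 3.41% of all genes tested.

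With 3 replicates per line, the intervals of *Hhex* and *Chrd* reach past a 2-fold change, and with the replicate block that of *Chrd* alone.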
